A study of Mus musculus with 81 samples.

Results

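Thymic lymphomas of 20 mice were compared by how much RNA they made from chromosome 15. The mice were chosen by that measured value: they were the 10 mice with the highest chromosome 15 value (chr15-high) and the 10 with the lowest (chr15-low) among 31 lymphoma mice, and they make up 20 of the 40 mice and 49 of the 81 RNA-seq libraries of the series. The series examined how aneuploidy, an abnormal chromosome number, affects tumour development. All mice were C57BL/6 x 129S4Sv/Jae and carried Plk4(Col1a1), rtTA(Rosa) and centrin-GFP(Rosa), so the untreated controls held the same inducible Plk4 alleles as the treated mice. Plk4 is the master kinase of centriole copying, and doxycycline, given for 2 weeks from day 30 of life, induces the transgene through rtTA.

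The chr15-high mice were 5 p53+/- mice given doxycycline, 3 p53-/- mice given doxycycline and 2 untreated p53-/- mice. The chr15-low mice were 2 p53+/- mice given doxycycline, 2 p53-/- mice given doxycycline and 6 untreated p53-/- mice. Labelled sex was also uneven, with 3 males and 7 females in the chr15-high class and 7 males and 3 females in the chr15-low class. The reference was 8 untreated p53+/+ normal thymuses. The alleles are germline, so stroma and lymphoma cells of a tumour inherited the same genotype. Whether the lymphoma cells of p53+/- mice kept their p53+ allele was not examined. The age at which a tumour was taken is not given in the sources used here.

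Chromosome 15 of the mouse carries Myc, the transcription factor that drives cell growth and ribosome production, with the long noncoding RNA Pvt1 just beyond it. Gain of a whole chromosome 15 is a classical change in mouse T-cell lymphomas, and rearrangements near Myc and Pvt1 are classical in mouse lymphoid tumours. RNA from a chromosome tends to follow its number of copies, but RNA alone does not count copies. The cohesin subunit gene Rad21, the DNA repair gene Xrcc6 and a cluster of Ly6 surface protein genes also lie on this chromosome.

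The chromosome 15 value of a mouse was the median over 577 genes of the log2 ratio of its RNA to the mean of the normal thymuses. It was computed on log2(CPM + 1), where CPM is the count scaled to the same total in every mouse, and centred on the median of 14912 autosomal genes. In the chr15-high class it ran from 0.41 through a median of 0.55 to 0.67, with a mean of 0.54 ± 0.10 (SD, n = 10). In the chr15-low class it ran from -0.10 through 0.16 to 0.26, with a mean of 0.13 ± 0.12 (SD, n = 10). These values chose the mice, so the 2 classes do not overlap by construction and no test of them was made.

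The normal thymuses lay between -0.03 and 0.02. All 10 chr15-high mice and 8 of the 10 chr15-low mice were above every normal thymus, so most of the chr15-low lymphomas were raised as well. Mouse 862 lay within the normal range at -0.00, and mouse 663 lay below it at -0.10. An RNA rise in proportion to 3 copies in place of 2 would be near 0.58 on this scale for genes far above 1 CPM. The genes did not shift evenly, so a value near 0.58 does not show 3 copies. Against normal, the chr15-high median over genes was -0.3237 at 1 to 3 CPM and -0.4437 at 3 to 10 CPM. It was 0.1684 at 10 to 30, 0.6679 at 30 to 100 and 1.1024 at 100 CPM or more. The number of copies was not tested. The last mice inside the chr15-high class were mouse 659 (0.406) and mouse 553 (0.407), and the first outside was mouse 309 (0.398). At the other edge, mouse 202 was inside the chr15-low class at 0.261 and mouse 497 outside it at 0.283, so the values form a continuous series with no gap at either edge.

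**Figure D1:**
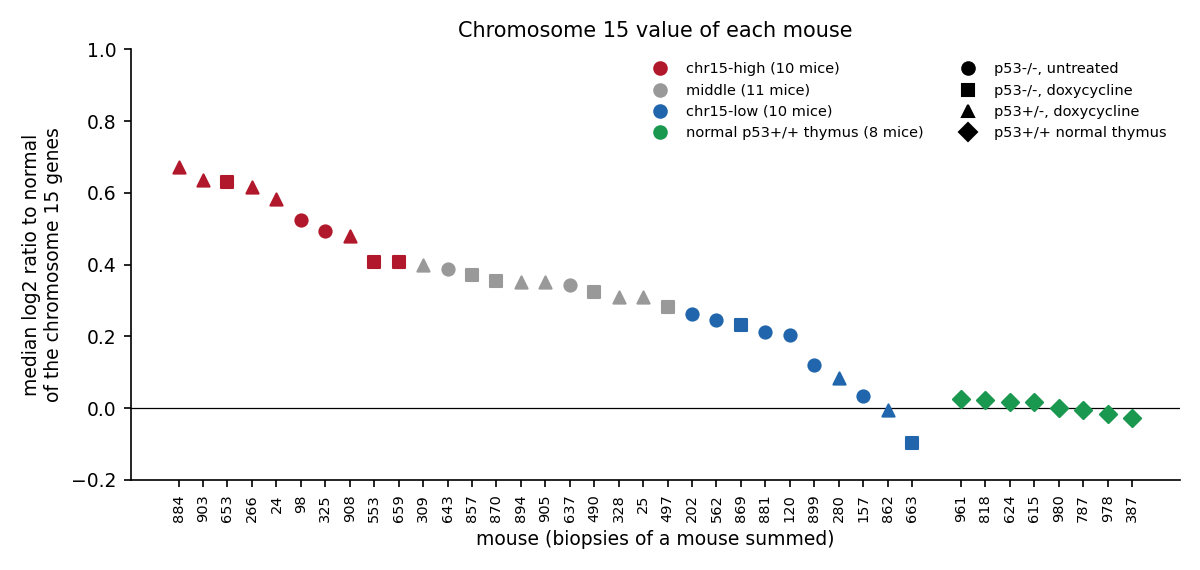
Chromosome 15 value (median log2 ratio to the normal mean over 577 genes, y axis) of each mouse (x axis), ordered from high to low, with colour for the class and marker shape for genotype and treatment. The 10 chr15-high mice sit between 0.41 and 0.67 and the 10 chr15-low mice between -0.10 and 0.26, and the 11 mice between them join the 2 classes without a gap.

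Libraries held 1030429 to 26871781 expected counts, with a median of 15027223. Summed over the biopsies of a mouse, totals were 9482592 to 88579432 in chr15-high and 10442914 to 98590878 in chr15-low mice. Trp53, which encodes p53, was below every normal thymus in 10 of 10 chr15-high and 5 of 10 chr15-low lymphomas, and in all 10 of both classes without normal mouse 387. Of these mice, 5 chr15-high and 2 chr15-low mice were p53+/-. Which allele, or which part of it, the remaining Trp53 counts came from was not examined. Plk4 ranged from 5.29 to 6.47 in chr15-high and from 5.41 to 6.63 in chr15-low lymphomas on the log2(CPM + 1) scale. In mouse 869 of the chr15-low class, Xist and Y-linked counts went against the labelled sex. The labels name separate mice, so the mouse was the replicate throughout.

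The labelled tissue was checked against lineage markers. Cd3e, a subunit of the T-cell receptor complex, ranged from 7.15 to 8.16 log2(CPM + 1) in the chr15-high lymphomas. In the chr15-low class it was 1.47 in mouse 881 and 7.29 to 9.64 in the other 9. Mouse 881 had Cd79a, a subunit of the B-cell receptor, at 9.73, and its 25 T-lineage markers summed to 854 CPM against a class median of 9986 CPM. The tumour labelled thymic lymphoma of mouse 881 thus had B-lineage rather than T-lineage markers, and the comparisons of other autosomes, of genes outside chromosome 15 and of Myc and Pvt1 were repeated without it. edgeR called 0 genes without it as well. In mouse 98 of the chr15-high class, Cd79a (6.85) was the highest of that class beside a Cd3e of 7.63. Among the normal thymuses, mouse 387 stood apart, with a T-lineage sum of 2489 CPM against 15800 to 23720 in the other 7, a B-lineage sum of 13470 against 973 to 3966 and a fat sum of 12440 against 1170 to 5802. It sets 1 end of several normal ranges, and values without it are given where it changes a statement. The difference in the chromosome 15 value was 0.42 with it and 0.41 without it in the reference. In bulk tissue, fewer cells of a type and less RNA per cell cannot be told apart.

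Along chromosome 15 the difference between the classes was spread over the whole length rather than held in 1 region. Over windows of 10 Mb, the chr15-high mean exceeded the chr15-low mean in each of 11 windows, by 0.24 to 0.47 on the log2 scale. The chr15-high class stood highest in the window from 10 to 20 Mb, at 0.72 ± 0.16 (SD, n = 10 mice), and from 90 to 100 Mb, at 0.72 ± 0.16 (SD, n = 10). It stood lowest in the window from 20 to 30 Mb, at 0.11 ± 0.21 (SD, n = 10), which holds 8 genes. The chr15-low class reached 0.34 ± 0.24 (SD, n = 10) from 10 to 20 Mb and 0.28 ± 0.19 (SD, n = 10) from 90 to 100 Mb, so both classes were raised in the same windows. Every chromosome 15 gene entered the rule, and these values are a description.

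The most gene-dense stretch gave the tightest values. From 70 to 80 Mb, with 146 genes, chr15-high lymphomas had 0.47 ± 0.09 and chr15-low lymphomas 0.03 ± 0.17 (SD, n = 10 each). From 80 to 90 Mb, with 113 genes, the values were 0.58 ± 0.08 and 0.13 ± 0.14 (SD, n = 10 each). In this second window each of the 10 chr15-high mice was above each of the 10 chr15-low mice. The smallest differences were 0.24 in the last window, from 100 to 110 Mb, and 0.26 in the window from 60 to 70 Mb, which holds Myc.

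**Figure D2:**
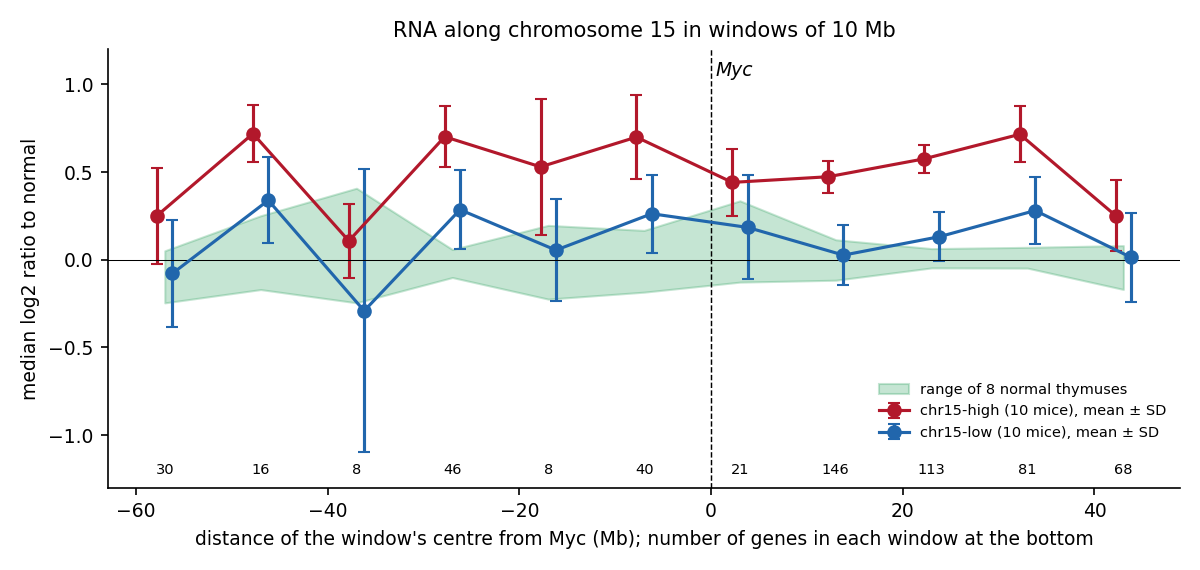
Median log2 ratio to the normal mean (y axis) in windows of 10 Mb along chromosome 15, by the distance of the window's centre from Myc in Mb (x axis), as mean ± SD of 10 chr15-high and 10 chr15-low mice over the range of 8 normal thymuses. The numbers at the bottom count genes, and the chr15-high mean is above the chr15-low mean in all 11 windows, by 0.24 to 0.47.

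Split at Myc, the genes before it and the genes after it gave similar values in most chr15-high tumours. The median before Myc was 0.56 ± 0.18 in chr15-high and 0.22 ± 0.17 in chr15-low mice (SD, n = 10 each). After Myc it was 0.54 ± 0.09 and 0.10 ± 0.13 (SD, n = 10 each). All 10 chr15-high mice exceeded every normal thymus on both sides, while 9 of 10 chr15-low mice did so before Myc and 7 of 10 after it.

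Single tumours departed from an even shift in both directions. Mouse 903 had 0.85 before Myc and 0.57 after it, and mouse 24 had 0.74 and 0.55. Mouse 98 showed the reverse, with 0.31 before and 0.59 after Myc. Among chr15-low mice, 157 had 0.26 before Myc and -0.07 after it, 202 had 0.47 and 0.23, and 881 had 0.41 and 0.15. Normal thymuses also differed between the sides, by -0.16 to 0.18 (after minus before). Differences beyond that range were -0.28 in mouse 903, -0.19 in mouse 24 and 0.28 in mouse 98 of the chr15-high class, and -0.33, -0.27, -0.23 and -0.19 in mice 157, 881, 202 and 120 of the chr15-low class. Without normal mouse 387 the normal range began at -0.07, and 4 chr15-high and 6 chr15-low mice lay below it.

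Biopsies of 1 tumour gave close values. In 13 tumours with 54 biopsies, 9 of them among the 20 mice compared, the pooled SD within a tumour was 0.072 against an SD of 0.191 between the 31 mice. The 4 biopsies of chr15-high mouse 903 had 0.603, 0.636, 0.658 and 0.671. The 5 biopsies of chr15-low mouse 862 had -0.027, -0.010, -0.004, 0.027 and 0.031. The widest range was in chr15-high mouse 884, whose 4 biopsies had 0.560, 0.688, 0.781 and 0.832. In chr15-high mouse 908 the biopsies had 0.374, 0.383, 0.507 and 0.633, so 2 of its 4 biopsies, like 2 of the 4 of mouse 325, were below the lowest chr15-high mouse. None of the biopsies of the 5 multifocal chr15-low tumours exceeded 0.350.

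Gene by gene, 469 of 577 chromosome 15 genes (81.3%) had a higher mean in chr15-high than in chr15-low lymphomas, against 7046 of 14335 genes (49.2%) on the other 18 autosomes. The median difference on chromosome 15 was 0.39 on the log2 scale. The rule used these same genes, and nothing is read from the count. Complete separation was rare: in centred ratios to normal, 4 genes (0.693%) had all 10 chr15-high mice above all 10 chr15-low mice, and they were Derl1, Gga1, Pla2g6 and Ttll12. Derl1 encodes an endoplasmic reticulum protein of the degradation pathway, Gga1 a sorting adaptor of the trans-Golgi, and Pla2g6 a phospholipase. On the other autosomes 0 of 14335 genes (0%) separated in this direction and 1 (0.00698%) in the other.

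Against the normal thymuses, 147 chromosome 15 genes (25.5%) were higher in all 10 chr15-high mice than in every normal thymus, and 43 (7.45%) in all 10 chr15-low mice. On the other autosomes these counts were 1110 (7.74%) and 731 (5.1%). In all 20 mice together, 37 chromosome 15 genes (6.41%) were above every normal thymus. Without normal mouse 387 the chromosome 15 counts were 168 (29.1%), 52 (9.01%) and, in all 20 mice, 45 (7.8%). On the other autosomes they were then 1256 (8.76%) and 822 (5.73%). The rule chose the mice by the ratio of these chromosome 15 genes to normal, so nothing is read from the chromosome 15 counts.

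The difference grew with expression level. Among 156 chromosome 15 genes with a mean of 1 to 10 CPM its median was 0.10, among 285 genes of 10 to 100 CPM 0.41, and among 136 genes of at least 100 CPM 0.55. In the last set 96.3% of genes were higher in chr15-high lymphomas. On the 16 autosomes other than 4, 14 and 15 the same levels gave -0.04, -0.05 and 0.04. Adding 0.1 in place of 1 to the CPM gave chromosome 15 medians of 0.15, 0.43 and 0.56.

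**Figure D3:**
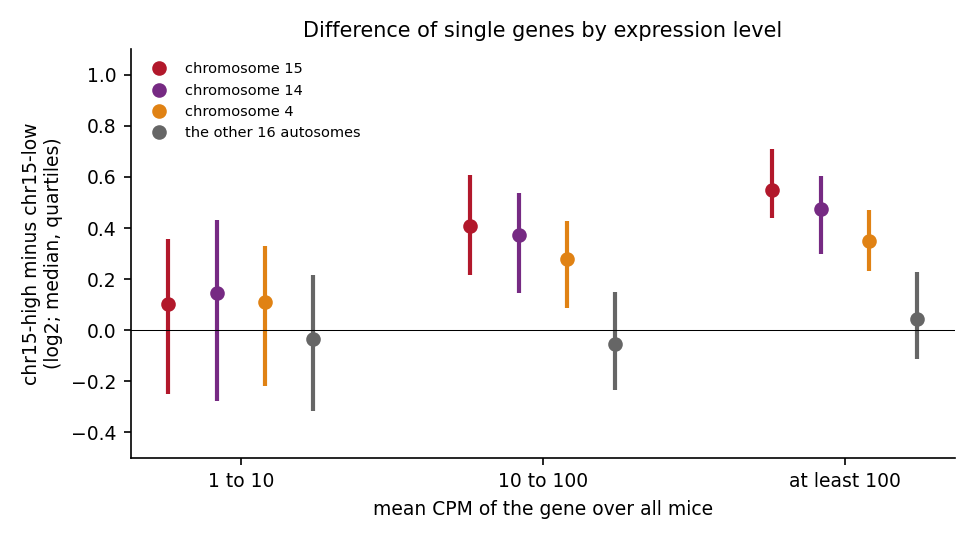
Difference of single genes between chr15-high and chr15-low means (log2, y axis; points are medians over genes and bars quartiles) by the gene's mean CPM (x axis). Medians rise from 0.10 to 0.55 on chromosome 15, from 0.15 to 0.47 on chromosome 14 and from 0.11 to 0.35 on chromosome 4, and stay between -0.05 and 0.04 on the other 16 autosomes.

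Myc itself did not follow the chromosome. Myc (ENSMUSG00000022346, chr15:61985391-61990374 in GRCm38) ran from 5.89 through a median of 7.54 to 8.30 log2(CPM + 1) in chr15-high lymphomas. In chr15-low lymphomas it ran from 6.61 through 8.10 to 8.70, and in normal thymuses from 5.36 through 5.71 to 6.04. All 10 chr15-low and 9 of 10 chr15-high lymphomas were above every normal thymus. The exception was chr15-high mouse 266, at 5.89. The centred log2 ratio to normal was 1.79 ± 0.74 in chr15-high and 2.31 ± 0.57 in chr15-low lymphomas (SD, n = 10 each), a difference of -0.51 that is smaller than either SD and was -0.50 without mouse 881.

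Without mice 884 and 266, whose Myc was the lowest of the chr15-high class, the difference was -0.24. In both of these mice Notch1, the receptor gene whose activation is common in T-cell leukaemia, was also low, at 5.66 and 4.40 log2(CPM + 1) against a chr15-high median of 9.48. Mice 884 and 266 were picked out here after their values were seen. Their chromosome 15 values of 0.67 and 0.62 were the highest and the fourth highest of all 31 lymphoma mice.

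Pvt1 (chr15:62037986-62378096) ran from 2.14 through 3.23 to 4.06 in chr15-high and from 2.32 through 3.55 to 9.98 log2(CPM + 1) in chr15-low lymphomas. The highest value belonged to chr15-low mouse 120 and the next to chr15-low mouse 202, at 6.28. The difference in centred ratio, -1.01, was -1.07 without mouse 881, -0.37 without mouse 120 and 0.01 without all 3 of 120, 202 and 881. Mice 120 and 202 had Notch1 at 4.21 and 5.70 and Rag1, which cuts antigen receptor genes, at 1.35 and 0.39. They had the cyclin gene Ccnd2 (chromosome 6) at 12.8 and 9.27, against 1.92 to 8.27 in the other 8 chr15-low mice. Sntb1, which encodes a syntrophin and lies before Myc, was 4.25 in mouse 120, 3.69 in mouse 202 and 2.65 in mouse 881, and at most 1.09 in the other chr15-low and 0.62 in the chr15-high mice. The 11 mice between the classes had at most 0.71 and normal thymuses 1.16 to 4.12 (at most 2.89 without mouse 387), so these 3 untreated p53-/- tumours had more Sntb1 RNA than every other lymphoma. Mice 120, 202 and 881 were picked out after their values were seen, and their chromosome 15 values were 0.20 to 0.26.

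**Figure D4:**
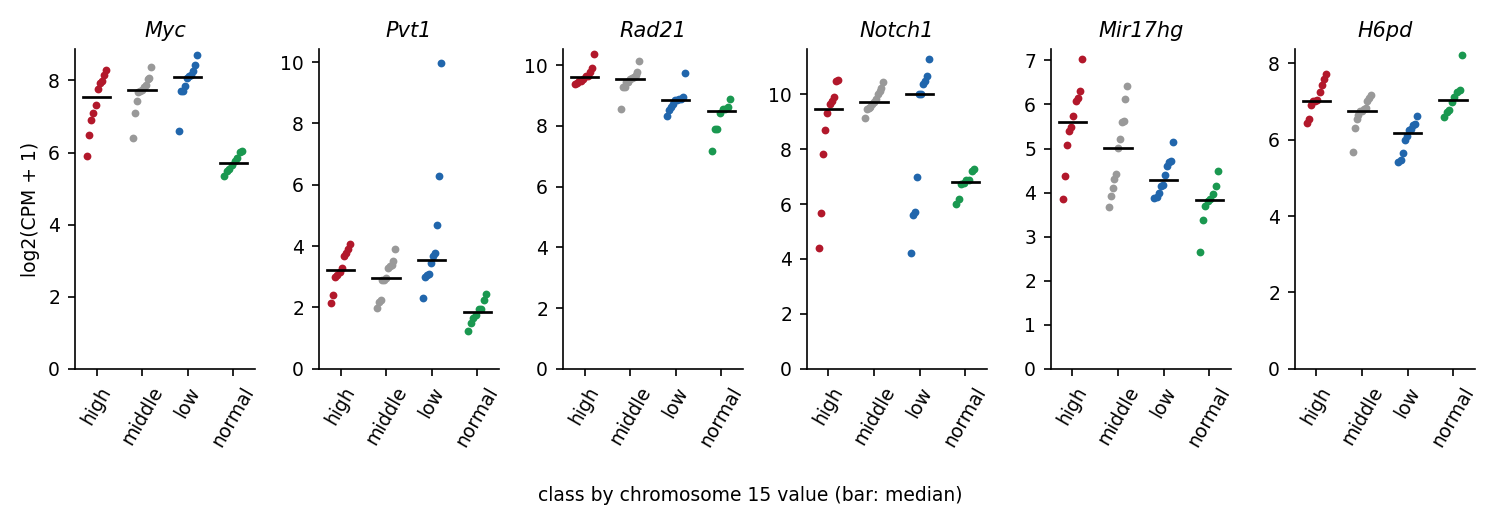
Level of 6 genes (log2(CPM + 1), y axes that start at 0) in each mouse by class of chromosome 15 value (x axes; bar, median). Myc is highest in the chr15-low class (median 8.10 against 7.54), Pvt1 reaches 9.98 in 1 chr15-low mouse, Notch1 is under 7.27, the highest normal value, in 2 chr15-high and 4 chr15-low mice, and Rad21, Mir17hg and H6pd have higher medians in the chr15-high class.

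Of the 17 measured genes around Myc in a list for the region, 13 had a higher mean in the chr15-high class and the median difference was 0.38, close to the 0.39 of all chromosome 15 genes. Atad2, a chromatin ATPase gene, differed by 0.73 and Sqle, a cholesterol synthesis enzyme gene, by 0.93. Derl1 differed by 0.83 in centred ratio, with uncentred levels of 6.97 to 7.53 log2(CPM + 1) in chr15-high and 6.05 to 7.01 in chr15-low mice. The 4 members with a lower mean were Myc, Pvt1, Fbxo32 (-0.31) and Zhx2 (-1.02). Sqle, Atad2 and Derl1 lie in the window from 50 to 60 Mb. In the window from 60 to 70 Mb, which holds Myc among its 21 genes, the median difference of single genes was 0.07, and its listed genes other than Myc and Pvt1 were Ndrg1 (0.04), Fam84b (0.07), Asap1 (0.30), Fam49b (0.38), Phf20l1 (0.51) and Sla (1.26).

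In the list of genes for cell division and repair, 16 of 17 measured genes had a higher chr15-high mean, with a median difference of 0.58. Over all chromosome 15 genes the share was 81.3%, and over those of at least 100 CPM 96.3% with a median of 0.55, so the count is near that of the chromosome. Rad21, a core cohesin subunit, ran from 9.39 through 9.60 to 10.4 in chr15-high and from 8.33 through 8.86 to 9.74 log2(CPM + 1) in chr15-low lymphomas, against 7.17 to 8.88 in normal thymus. The classes overlapped through mouse 869 alone among chr15-low mice, which had 9.74. Skp2, the substrate receptor of a ubiquitin ligase that removes the cell-cycle inhibitor p27, differed by 0.94, Racgap1, needed for cytokinesis, by 0.64 and Espl1, the separase that cuts cohesin, by 0.55. Rrm2b, a p53-regulated ribonucleotide reductase subunit, was the exception at -0.08.

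Xrcc6 (chr15:81987835-82040085), the Ku70 subunit of DNA end joining, differed far more than its chromosome. It ran from 9.01 through 10.2 to 11.2 in chr15-high and from 6.28 through 8.23 to 9.96 log2(CPM + 1) in chr15-low lymphomas, a difference in centred ratio of 1.93. Normal thymuses ran from 5.65 to 9.38, and from 8.40 without mouse 387. In chr15-low mice 120 and 202 it was at 6.30 and 6.28, and in 663 at 7.01, while 3 of the 10 chr15-low mice were above every normal thymus. Its spread within the chr15-low class was 1.42 (SD) against 0.76 in the chr15-high class. In the 11 mice between the classes Xrcc6 ran from 9.26 through 10.3 to 10.8. Its mean centred ratio there was 1.92, against 1.81 in chr15-high and -0.12 in chr15-low lymphomas. Xrcc6 thus did not rise from the mice between the classes to the chr15-high mice.

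Immune genes of chromosome 15 were the most variable list. Of 23 genes, 20 had a higher chr15-high mean, and the differences ran from -0.18 to 2.77 with a median of 0.71. The count is near the 81.3% of all chromosome 15 genes that were higher. Ly6d, a surface protein of early lymphoid cells, ran from 3.48 through 7.0 to 9.38 in chr15-high and from 1.94 through 3.69 to 6.52 in chr15-low lymphomas. Its median was 7.43 in the 11 mice between the classes, and normal thymuses had 6.45 to 8.57 log2(CPM + 1) (from 7.90 without mouse 387). Ly6c1 differed by 1.71, the integrin gene Itgb7 by 1.47, the focal adhesion kinase gene Ptk2 by 1.44 and the adaptor gene Sla by 1.26. Il7r, the interleukin 7 receptor that thymocyte precursors need, differed by -0.04, but its levels ran from 1.68 through a median of 4.79 to 6.67 in chr15-high and from 2.58 through 3.70 to 9.87 in chr15-low mice, so the medians were ordered like the chromosome. The 2 highest chr15-low values were 9.87 in mouse 202 and 8.46 in mouse 881. Il2rb, a subunit of the interleukin 2 receptor, differed by 0.00, with medians of 4.71 and 4.61. Genes of the Ly6 family have close copies, and their counts are uncertain where reads are shared.

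The listed genes for translation, metabolism, chromatin and RNA were all higher, and the rule that chose the mice used them too. Over all chromosome 15 genes, 86.3% at 10 to 100 CPM and 96.3% at 100 CPM or more were higher, so these counts are near those of the chromosome. All 15 listed translation genes were higher, by 0.35 to 0.75 with a median of 0.50. The ribosomal protein gene Rpl3 ran from 9.62 to 10.4 in chr15-high and from 9.09 to 9.99 log2(CPM + 1) in chr15-low mice, and Rpl8 differed by 0.50. The initiation factor subunit gene Eif3d differed by 0.49 and the threonyl-tRNA synthetase gene Tars by 0.75. All 14 metabolism genes were higher, by 0.26 to 0.73 with a median of 0.51. They included Cyc1, of respiratory complex III, at 0.66 and the amino acid transporter gene Slc38a2 at 0.73. All 18 genes for chromatin and RNA were higher by 0.26 to 0.77, with Ago2, the core of the RNA-silencing complex, at 0.77, the desumoylating protease gene Senp1 at 0.75 and the acetyltransferase gene Ep300 at 0.59.

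The largest and smallest differences among genes of at least 10 CPM lay far from the chromosome's median. After Ly6d came Ly6k (2.05), Dennd3 (1.96), Xrcc6 (1.93) and Soat2 (1.93). Median Ly6k was 6.03 log2(CPM + 1) in the 11 mice between the classes, above the 2.59 of chr15-high and 0.42 of chr15-low mice. Median Dennd3 and median Soat2 of those 11 mice lay between the medians of the classes. Soat2, a cholesterol esterification enzyme gene, was at 0 to 1.41 log2(CPM + 1) in normal thymus and 2.75 to 5.55 in chr15-high lymphomas. At the low end were the keratin genes Krt5 (-2.09), Krt18 (-1.52) and Krt8 (-1.36), with Zhx2 (-1.02) and Ank (-0.89). These keratins mark thymic epithelium, and the summed CPM of 9 other epithelial markers was 27.7 to 124 in chr15-high, 48.6 to 234 in chr15-low lymphomas and 129 to 2637 in normal thymuses, where 129 belonged to mouse 387 and the other 7 had at least 1511. The part of epithelial cells in the keratin difference was not tested.

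Outside chromosome 15, chromosomes 4 and 14 were higher and chromosome 11 lower in the chr15-high lymphomas. Of the 18 other autosomes, 3 (16.7%) passed an adjusted p of 0.05 in a two-sided permutation test of the mean over mice with 100000 resamples and Benjamini-Hochberg adjustment over the 18. Chromosome 14 ran from 0.19 through 0.46 to 0.60 in chr15-high mice and from -0.17 through 0.03 to 0.58 in chr15-low mice. The difference was 0.32 (permutation p = 0.0038, adjusted p = 0.0289). All 10 chr15-high and 3 of 10 chr15-low mice lay above every normal thymus on chromosome 14.

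Chromosome 4 ran from 0.23 through 0.36 to 0.55 in chr15-high and from -0.10 through 0.06 to 0.50 in chr15-low mice. The difference was 0.24 (permutation p = 0.00482, adjusted p = 0.0289), with all 10 chr15-high and 5 of 10 chr15-low mice above every normal thymus. Chromosome 11 ran from -0.15 through -0.03 to 0.27 in chr15-high and from -0.05 through 0.19 to 0.35 in chr15-low mice. It was lower in chr15-high lymphomas by a difference of -0.19 (permutation p = 0.00482, adjusted p = 0.0289), and 9 of 10 chr15-low but 3 of 10 chr15-high mice were above every normal thymus.

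The 3 calls lay close to the threshold. With all 31 mice divided into the 16 highest and the 15 lowest, the chromosome 14 difference was 0.09 (permutation adjusted p = 0.559) and the chromosome 4 difference 0.16 (adjusted p = 0.0606), and the 11 mice between the classes had a chromosome 14 mean of 0.36. Leaving out each of the 20 mice in turn gave differences of 0.29 to 0.37 for chromosome 14, 0.21 to 0.28 for chromosome 4 and -0.22 to -0.17 for chromosome 11, all in the same direction. The adjusted p of each then ran up to 0.0552. All 3 calls were lost without any 1 of 884, 903, 24, 659, 562, 862, 663 or the B-lineage mouse 881, where adjusted p-values were 0.0538 for each of the 3 chromosomes. When classes were permuted within groups of genotype and treatment, the differences were 0.25, 0.19 and -0.20 for chromosomes 14, 4 and 11, with adjusted p-values of 0.141, 0.141 and 0.138.

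Genotype and treatment were uneven between the classes, and the values within groups are given for that reason. Among p53+/- mice given doxycycline, chromosome 14 had a mean of 0.46 in 5 chr15-high and 0.20 in 2 chr15-low mice. Among untreated p53-/- mice it was 0.38 in 2 and 0.01 in 6, and among treated p53-/- mice 0.37 in 3 and 0.28 in 2. The same order of groups gave differences of 0.30, 0.23 and 0.02 for chromosome 4 and -0.22, -0.17 and -0.23 for chromosome 11. Every within-group difference thus had the direction of the pooled one, while chromosome 4 hardly differed among treated p53-/- mice. The differences within single groups were not tested.

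**Figure D5:**
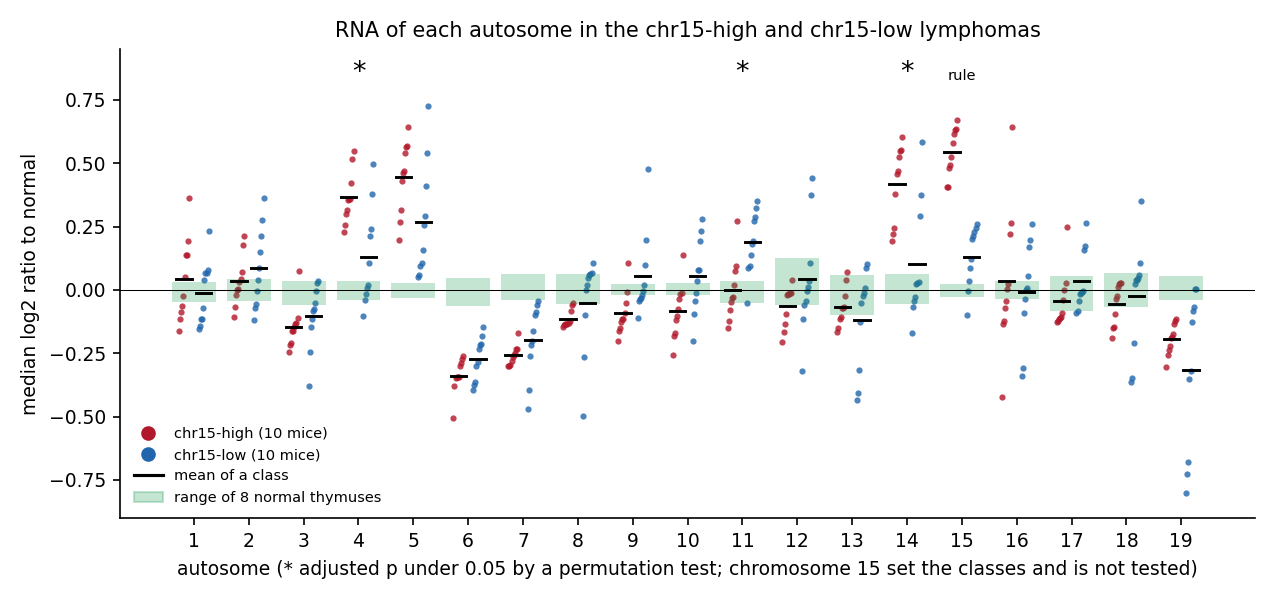
Median log2 ratio to the normal mean (y axis) of each autosome (x axis) in 10 chr15-high and 10 chr15-low mice, 1 point per mouse, with class means as bars and the range of 8 normal thymuses shaded. Stars mark chromosomes 4, 11 and 14, whose adjusted p was 0.0289 and which lost it in leave-one-out tests, and chromosome 15 set the classes.

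The shifts of chromosomes 4, 11 and 14 also ran along their length. In 8 windows of 20 Mb, chromosome 4 was higher in chr15-high lymphomas by 0.14 to 0.27. In 7 windows, chromosome 11 differed by -0.23 to -0.09. In 7 windows, chromosome 14 was higher by 0.19 to 0.46, most from 20 to 40 Mb, where 121 genes gave 0.66 ± 0.20 in chr15-high and 0.20 ± 0.25 in chr15-low mice (SD, n = 10 each). As on chromosome 15, highly expressed genes showed the larger difference: genes of at least 100 CPM had a median of 0.47 on chromosome 14 and 0.35 on chromosome 4.

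Other chromosomes did not pass the test. Chromosome 9 differed by -0.15 (permutation p = 0.015, adjusted p = 0.0677), and its adjusted p was 0.0105 to 0.0491 in 5 of 9 alternatives and 0.0761 to 0.261 in the other 4. Chromosome 10 differed by -0.14 (adjusted p = 0.118), with 0.0308 and 0.0427 in 2 of 9 alternatives, and chromosome 5 by 0.18 (adjusted p = 0.163). Chromosome 5 was above every normal thymus in all 10 mice of both classes, with means of 0.45 ± 0.14 and 0.27 ± 0.23 (SD, n = 10 each). Chromosomes 6 and 7 were below every normal thymus in all 20 mice. Chromosome 6 had means of -0.34 ± 0.07 in chr15-high and -0.27 ± 0.09 in chr15-low mice (SD, n = 10 each), and this difference did not pass (adjusted p = 0.188). Chromosome 19 ran from -0.30 to -0.12 in chr15-high mice and from -0.80 to 0.00 in chr15-low mice, so its spread was wider where chromosome 15 was low.

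No difference in imbalance elsewhere was detected between the classes. The SD over the 18 other autosomal values of a mouse was 0.24 ± 0.04 in chr15-high and 0.23 ± 0.06 in chr15-low lymphomas (SD, n = 10 each), a difference of 0.01 (permutation p = 0.583). In the normal thymuses it ran from 0.02 to 0.05, and in the 20 lymphomas from 0.09 in chr15-low mouse 562 to 0.30 in chr15-low mouse 869.

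No single gene outside chromosome 15 passed the edgeR quasi-likelihood test between the classes with lymphoma group and sex in the model. Of 15129 genes tested, 0 (0%) were called at an adjusted p of 0.05. At an unadjusted p under 0.05 there were 1451 genes (9.59%), 490 (3.24%) with higher and 961 (6.35%) with lower RNA in chr15-high lymphomas. With chromosome 15 left out before normalization, 1387 genes had such a p, 588 of them with higher RNA. DESeq2 with the same model called 123 of 14917 genes (0.825%), 43 higher and 80 lower. An edgeR fit over all 31 mice with the chromosome 15 value as a number called 168 of 17472 (0.962%), 17 higher and 151 lower. The genes named next are those of lowest p in each direction in the edgeR test between the classes, which called none of them. DESeq2 called all 20 of these genes and the edgeR fit over 31 mice 12.

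Genes with an unadjusted p under 0.05 were unevenly spread over chromosomes. Of 518 genes tested on chromosome 14, 13.7% had higher RNA at an unadjusted p under 0.05, and 8.38% of 955 on chromosome 4, against 3.24% over all genes. On chromosome 11, 17.4% of 1262 genes had lower RNA at that p, against 6.35% over all. The next shares of lower genes were 10.7% on chromosome 17, 10.3% on chromosome 10 and 9.26% on chromosome 9. The next shares of higher genes were 5.68% on chromosome 19 and 5.14% on chromosome 5. Among the 10 genes of lowest p with higher RNA, 7 lay on chromosome 14 and 2 on chromosome 4.

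Mir17hg (chr14:115042879-115046727), the host transcript of the miR-17-92 cluster of microRNAs, had the lowest p. It ran from 3.86 through 5.61 to 7.03 in chr15-high, from 3.87 through 4.28 to 5.15 in chr15-low lymphomas and from 2.66 to 4.50 log2(CPM + 1) in normal thymuses. The edgeR log2 fold change was 1.68 ± 0.31 (SE, adjusted p = 0.181), and 7 of 10 chr15-high mice were above all chr15-low mice. With the 7 highest against the 7 lowest mice it was 1.04 (edgeR adjusted p = 0.701). The 2 lowest chr15-high values belonged to mice 266 (3.86) and 884 (4.38), the mice of lowest Myc. The table gives counts of the host gene and not of the microRNAs themselves.

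H6pd (chromosome 4), a glucose-6-phosphate dehydrogenase of the endoplasmic reticulum, ran from 6.44 through 7.03 to 7.73 in chr15-high and from 5.42 through 6.17 to 6.61 in chr15-low lymphomas. Its log2 fold change was 0.97 ± 0.19 (SE, edgeR adjusted p = 0.181), and the median of all genes tested on chromosome 4 was 0.17. Normal thymuses ran from 6.59 to 8.23, so 9 of 10 chr15-low and 2 of 10 chr15-high lymphomas were below every one of them. Wdr78, also on chromosome 4, had 2.05 ± 0.41 (SE), with a highest chr15-high value of 5.51 in mouse 98 and 4.39 to 6.86 log2(CPM + 1) in normal thymuses (from 6.37 without mouse 387).

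The other genes on chromosome 14 had log2 fold changes from 0.60 to 1.07, each with an edgeR adjusted p of 0.314, where the median of chromosome 14 was 0.24. They were Sec24c of the vesicle coat that leaves the endoplasmic reticulum, Wdhd1 of the replication fork, Psmc6 of the proteasome, the cytokine signalling inhibitor Socs4, the chaperone Dnajc3 and the exchange factor Arhgef3. Psmc6 had the largest value, 1.07 ± 0.26 (SE), with 7.51 to 9.52 log2(CPM + 1) in chr15-high and 6.63 to 8.25 in chr15-low mice. Pvr on chromosome 7, which encodes a surface ligand of natural killer cell receptors, had 1.36 ± 0.36 (SE, edgeR adjusted p = 0.314).

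The 10 genes of lowest p with lower RNA lay on 8 chromosomes, none of them 4, 11 or 14. 4930430F08Rik on chromosome 10 had 0.96 to 2.47 in chr15-high and 2.90 to 4.01 log2(CPM + 1) in chr15-low lymphomas, and it was the only gene of the 18 other autosomes whose centred values did not overlap between the classes (0.00698% of 14335 genes). Its log2 fold change was -1.36 ± 0.27 (SE, edgeR adjusted p = 0.181). Fbxw17, an F-box gene of a family with close copies, had -2.03 ± 0.39 (SE). Susd4, a complement regulator gene, had -3.39 ± 0.72 (SE) and Psrc1, a spindle protein gene, -3.15 ± 0.67 (SE), each with an edgeR adjusted p of 0.202.

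Repin1, Zfp760, Zfp820 and Zfp949 had log2 fold changes of -2.60, -2.93, -2.94 and -1.86. Zfp760 and Zfp820 lie near each other on chromosome 17, and counts of such copies can be shared by ambiguous reads, which makes them uncertain. The claudin gene Cldn12 had -2.46 and the ribosome assembly gene Ltv1 -0.62. For Repin1, Zfp760, Cldn12, Zfp820, Zfp949, Psrc1 and Susd4 the highest chr15-low value was at least 4.43 log2(CPM + 1) and the lowest at most 1.85. None of these genes was thus high in every chr15-low mouse. These extremes do not show how many mice were low. Susd4 was above every normal thymus in 9 chr15-low mice, with a chr15-low median of 4.73.

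Gene lists outside chromosome 15 held 0 called genes in the edgeR test between the classes. Myc targets, 51 genes for ribosome production and growth, had a median log2 fold change of -0.05, the median of all 15129 genes being -0.04. At an unadjusted p under 0.05 there were 2 higher (Hspd1 0.58, Ipo4 0.47) and 5 lower (Mybbp1a, Slc19a1, Pes1, Phb and Utp20, from -0.63 to -0.39), where all genes gave 3.24% and 6.35%. These shares are the background for the counts at that p in every list named next. The summed CPM of the targets was 8297 to 14070 in chr15-high, 9342 to 12520 in chr15-low lymphomas and 3221 to 5247 in normal thymuses (from 4238 without mouse 387). Both classes were thus far above normal thymus and overlapped each other. The 13 measured partners and antagonists of Myc, such as Max and the Mxd genes, had a median of 0.09.

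Notch genes had a median of -0.50 over 13 genes, and 1, the coactivator gene Maml1, had an unadjusted p under 0.05. Notch1 itself ran from 4.40 to 10.5 in chr15-high and from 4.21 to 11.3 log2(CPM + 1) in chr15-low lymphomas, so each class held both Notch1-low and Notch1-high tumours. T-lineage genes had a median of 0.22 over 25 genes. Their largest differences were Trbc1 (-1.73 ± 1.72, SE, edgeR adjusted p = 0.771) and Cd4 (1.65 ± 0.47, SE, edgeR adjusted p = 0.314). Cd4 ran from 5.60 through 7.52 to 8.67 in chr15-high and from 5.14 through 5.45 to 8.40 in chr15-low lymphomas.

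Proliferation genes had a median of 0.13 over 24 genes, with 2 higher at an unadjusted p under 0.05, the cyclins Ccnb1 (0.53) and Ccne2 (0.62). p53 targets had a median of -0.22 over 11 genes, with 2 lower at that p, Ccng1 (-0.55) and Pmaip1 (-1.88). Genes of protein stress had a median of 0.43 over 13 genes with 0 at that p in either direction, and interferon genes a median of 0.19 over 14. In the list of T-leukaemia oncogenes and cyclins the median was -0.06 over 17 genes, with the cell-cycle inhibitor gene Cdkn2b (-1.20) lower at that p. Ccnd2 had the same fold change with a wider error, -1.20 ± 2.04 (SE, edgeR adjusted p = 0.88).

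Markers of other cells were measured in the same way. Myeloid markers had a median of 0.56 over 13 genes, 11 of them higher, and ran from -1.11 to 0.94. At an unadjusted p under 0.05, 4 were higher (Adgre1, C1qa, C1qc and Mpeg1, from 0.56 to 0.94) and 0 lower. The summed CPM of the myeloid list was 722 to 2469 (median 1268) in chr15-high and 774 to 1424 (median 1059) in chr15-low lymphomas. Stroma and vessel markers had a median of 0.39 over 14 genes, 10 of them higher, and ran from -1.405 to 2.10. Of these, Pdgfra (2.10) and Dcn (0.83) were higher at that p. The sums of this list were 582 to 3699 CPM in chr15-high and 451 to 1738 CPM in chr15-low lymphomas, with medians of 1106 and 1093. The highest sums of both lists were in chr15-high mouse 266. The part of these cells in the results above was not tested.

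B-lineage markers summed to 164 to 1218 CPM in chr15-high and to 61.1 to 8769 CPM in chr15-low mice, the last in mouse 881. Fat markers (62.2 to 255 and 48.3 to 159.5 CPM), erythroid markers (9.52 to 3173 and 52.6 to 3124 CPM) and natural killer markers (90.7 to 1166 and 8.30 to 430.3 CPM) overlapped between the classes, and no marker of these lists was at 0 in all mice of a class.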

How the data were processed

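RNA of thymic lymphomas and normal thymuses was measured by RNA-seq in 81 libraries of 40 mice, 1030429 to 26871781 counts each. The authors deposited RSEM expected counts per gene, not normalized; per the submitters' processing notes, CASAVA 1.8, fastp, STAR 2.7.2b, RSEM 1.1.17 and the mm10 build were used. Whether counting used strand is not given in the sources used here, so antisense and overlapping genes are uncertain. Expected counts (14.25% of values not whole) were summed over the biopsies of a mouse and, for tests, rounded. Genes were placed by Ensembl ID with GENCODE M21 (99.63% of 51826 matched).

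Genes of mean CPM of at least 1 entered the chromosome values: log2(CPM + 1) minus the mean of the normal thymuses, centred per mouse on the autosomal median. Chromosomes 1 to 19 other than 15 were compared by two-sided permutation over mice (100000 resamples, Benjamini-Hochberg over 18). Genes outside chromosome 15 were tested with edgeR 4.0.16 (quasi-likelihood, lymphoma group and sex as covariates, Benjamini-Hochberg over all genes tested) in R 4.3.3, with DESeq2 1.42.0 as an alternative. On simulated counts with 200 changed genes among 15495, edgeR recovered 35 of 100 at 2-fold and 73 of 100 at 4-fold, with 4 false calls. The text names the 10 genes of lowest p in each direction with a log2 CPM of at least 2, and the 5 largest and 5 smallest differences on chromosome 15 among genes of at least 10 CPM. The 10 highest and 10 lowest mice, the gene lists and the tests were chosen with earlier results of these data known. Alternatives changed the centring, filter, class size, covariates, tool and mice included. Sex genes went against the label in 3 mice.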

Additional observations from a re-analysis of the deposited data

Results flagged for a closer look

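In 105 groups of 10 mice, 1 mouse stood apart from the other 9 by Dixon's 95% criterion in 14 (13.3%), where chance gives about 1 in 20. Among chromosome values of the chr15-high class, mouse 908 had 0.0759 on chromosome 3 (next highest -0.1114), mouse 266 had -0.5067 on chromosome 6 (next lowest -0.3794), mouse 98 had -0.1695 on chromosome 7 (next highest -0.2333) and mouse 659 had 0.2467 on chromosome 17 (next highest 0.0287). In the chr15-low class, mouse 202 had 0.478 on chromosome 9 (next highest 0.196), and mouse 562 had an imbalance of 0.0897 over the 18 other autosomes (next lowest 0.207).

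Among genes in the chr15-high class, on the log2(CPM + 1) scale, Wdr78 was 5.51 in mouse 98 (next highest 3.79) and Pvr was 2.80 in mouse 884 (next lowest 4.52). 4930430F08Rik was 0.957 in mouse 24 (next lowest 1.68), and Zfp820 was 2.52 in mouse 553 (next highest 1.52). In the chr15-low class, Arhgef3 was 5.65 in the B-lineage mouse 881 (next lowest 5.96) and Myc was 6.61 in mouse 869 (next lowest 7.71), the mouse whose sex genes went against its label. Pvt1 was 9.98 in mouse 120 (next highest 6.28), and Ly6k was 7.95 in mouse 562 (next highest 3.44).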

How the results depend on the processing

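The number of other autosomes past the threshold, 3 of 18, became 0 when classes were permuted within lymphoma groups, 0 in single-biopsy tumours (6 against 5 mice), 0 without mouse 881 (an alternative chosen after seeing the data) and 5 without mice of discordant sex genes. Leaving out each mouse in turn, also added after seeing the data, gave 0 to 5. It was 4 without centring, 4 at a mean CPM of at least 10, 4 with the 7 highest against the 7 lowest, 3 when centred on autosomes other than 15, and 2 with the 16 highest against the 15 lowest, where chromosome 14 differed by 0.09 (adjusted p = 0.559) and chromosome 4 by 0.16 (adjusted p = 0.0606). Without centring, chromosome 4 had an adjusted p of 0.104 and chromosomes 9 and 10 passed (0.0427 each). Chromosome 9 also passed at a mean CPM of at least 10 (0.0491), with 7 against 7 (0.0105), with 16 against 15 (0.0324) and, like chromosome 10, without mice of discordant sex genes (0.0308 each). Directions reversed for chromosomes 1 (-0.01479), 13 (-0.01811) and 16 (-0.02473) without centring, chromosome 18 (0.003564) at a mean CPM of at least 10, chromosome 16 (-0.06687) with 7 against 7, and the imbalance within groups (-0.002504, permutation p = 0.912). None of these had passed its test. The cause was not tested.

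Genes called outside chromosome 15, 0 with edgeR, were 3 with no covariate, 168 over all 31 mice with the value as a number and 123 with DESeq2, and 0 under the other edgeR settings run. DESeq2 called all 20 named genes outside chromosome 15, the 31-mouse fit 12 and the fit with no covariate 3. No paired analysis was possible because the numbers in the labels are biopsy numbers within a mouse and pair no mice across classes. Totals as low as 9482592 expected counts per lymphoma mouse and 5009244 per normal thymus limit the precision of genes near 1 CPM.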
